A study of Mus musculus with 16 samples.

Results

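The largest contrast that 2 genotypes and 2 exposures allow was examined in the medial prefrontal cortex of mice: alcohol-exposed 3xTg-AD mice against WT controls that had neither the transgenes nor the alcohol. The members were the 4 mice titled AD_alcohol, 3xTg-AD (mice 4, 31, 33 and 34) and the 4 titled ctrl, WT (mice 26, 27, 28 and 36), 8 of the 16 mice of the series, with 55717 of its 114512 nuclei. For each mouse, the unique molecular identifiers (UMIs) of single-nucleus RNA-Seq were summed over all nuclei, and the mouse was the replicate. The mice were male by the study's methods and 22 weeks old by the labels, which give the strain of the WT mice as B6;129. 3xTg-AD mice carry human mutant APP and tau transgenes driven by a Thy1.2 cassette, which is active mainly in neurons. The study's methods give the background of 3xTg-AD mice as B6;129 too, and differences between the lines beyond the transgenes were not tested. The alcohol groups received repeated cycles of alcohol vapor with injections of alcohol and pyrazole, an inhibitor of alcohol dehydrogenase, whereas the controls received pyrazole in saline and air. The study's design places a test in a water maze between the exposure and the collection of tissue, in all groups. The other groups, used beside the contrast, were 3xTg-AD mice given air (mice 12, 13, 14 and 21) and WT mice exposed to alcohol (mice 6, 7, 17 and 18). Because genotype and exposure both differ between the 2 groups compared, their shares in a difference cannot be told apart in this contrast alone. For sums over all nuclei, the contrasts of 3xTg-AD mice without alcohol and of alcohol-exposed WT mice against the same WT controls are given beside it. They share control mice with it. Levels of single mice are listed in the order 26, 27, 28 and 36 for WT controls and 4, 31, 33 and 34 for alcohol-exposed 3xTg-AD mice, and the other groups in the order given above.

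The 3xTg-AD line develops amyloid deposits and tau aggregates in cortex and hippocampus with age. Interferons are signaling proteins that induce antiviral effector genes through STAT and IRF factors, the latter binding a short GAAA repeat, the interferon-stimulated response element, in promoters. Microglia, the immune cells of the brain, take up amyloid and produce most of the complement C1q of the cortex, while astrocytes and other cells contribute complement C4 when reactive. Repeated alcohol exposure acts on glutamate and GABA receptors and on calcium channels, and it is known to engage innate immune signaling in the brain.

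The 8 mice gave between 9622031 and 16977812 UMIs each and between 4955 and 9096 nuclei, and the median nucleus of a mouse held between 902 and 1308 detected genes. Of 112806 different barcodes, 1694 occurred in more than 1 mouse, at most 27 in any pair. The 5 markers of cortical glutamatergic neurons summed to 1022 to 1202 CPM (a gene's UMIs scaled to a library total common to all mice, adjusted by TMM factors) in WT controls and to 1039 to 1163 CPM in alcohol-exposed 3xTg-AD mice. WT controls 26 and 27 stood apart by Gm42418, a transcript that overlaps ribosomal RNA sequence, as did 3xTg-AD mouse 12 among the groups used beside the contrast. The 9 ribosomal RNA-associated transcripts summed to 5193 to 37807 CPM in WT controls and to 3241 to 4887 CPM in alcohol-exposed 3xTg-AD mice, so this measure moved with the groups. Fits that take it into account are given where they change a count of calls. WT control 27 also had the most UMIs of genes of subcortical neurons, 1406 CPM for 8 genes against 498 CPM in the lowest WT control and 481 to 584 CPM in alcohol-exposed 3xTg-AD mice. The 5 blood markers, 4 of them hemoglobin genes, summed to 299.5 to 478 CPM in WT controls and to 158 to 1043 CPM in alcohol-exposed 3xTg-AD mice, with mice 31 and 33 at the ends of that range. Every gene above 0 in a mouse had UMIs in at least 5 of its nuclei, so a 0 in this table can stand for a few UMIs and is not an absence.

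Of 16767 genes tested, 261 were higher and 420 lower in alcohol-exposed 3xTg-AD mice than in WT controls (edgeR quasi-likelihood test, Benjamini-Hochberg adjusted p of at most 0.05). Thus 1.56% of the genes were called higher and 2.5% lower, 4.06% in all. The called genes had a median log2 fold change of 0.86 among those higher and -0.98 among those lower, and 114 and 204 of them changed at least 2-fold. Levels did not overlap between the groups for 239 of the 261 and 381 of the 420 genes, beside a background of 4.44% and 6.43% of all genes tested with non-overlapping levels in these directions. Against the same WT controls, 3xTg-AD mice without alcohol had 20 genes higher and 53 lower (0.119% and 0.316%, 0.435% in all), and WT mice exposed to alcohol 1 higher and 2 lower (0.00596% and 0.0119%, 0.0179% in all). At an unadjusted p under 0.05 in edgeR these contrasts had 1372 and 2377 genes, in the reverse order. The counts of calls thus do not rank genotype and alcohol by response. Alcohol-exposed 3xTg-AD mice had 10 genes higher and 71 lower than 3xTg-AD mice (0.0596% and 0.423%, 0.483% in all), and 77 higher and 81 lower than WT mice exposed to alcohol (0.459% and 0.483%, 0.942% in all). The count of 81 genes between 3xTg-AD mice with and without alcohol was 0 without mouse 13, 21, 31, 33 or 34, 244 without mouse 12, 457 without the 3 mice highest in Gm42418 and 867 when ribosomal RNA-associated counts entered the fit as a covariate. The 158 genes between the exposed groups became 323 and 321 in the latter 2 fits and 49 to 182 without single mice, with 49 to 99 without mouse 6, 7, 18, 31, 33 or 34. The 73 genes of 3xTg-AD mice without alcohol became 45 and 70 in those fits and 35 to 105 without single mice, with 35, 39 and 38 without mouse 13, 14 or 21. The interaction of genotype and alcohol gave 0 calls in edgeR, with 583 genes at an unadjusted p under 0.05, and 1 call in DESeq2. DESeq2 gave 1230 calls in the main contrast, among them all 681 of edgeR. A fit on the 8 mice alone gave 398, and the count was 280 without 3xTg-AD mouse 33 exposed to alcohol, 334 without mouse 34, 375 without mouse 31, 403 without WT control 28 and 408 without WT control 26. With the share of ribosomal RNA-associated counts as a covariate there were 944 calls, of which 341 were among the 681, and leaving out the 3 mice highest in Gm42418 gave 659, of which 353 were among them.

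The smallest p-values among the lower genes belonged to genes that were low in every 3xTg-AD mouse, with or without alcohol. Sbspon measured 37.8, 29.5, 38.1 and 28.3 CPM in WT controls and 5.99, 5.76, 5.098 and 4.54 CPM in alcohol-exposed 3xTg-AD mice (log2 fold change -2.64, SE 0.17, adjusted p = 7.06e-08 in edgeR). Sbspon encodes an extracellular matrix protein with somatomedin B and thrombospondin domains, and its groups lay far apart, with no overlap. 3xTg-AD mice without alcohol measured 9.29, 12.4, 8.895 and 10.3 CPM, above all 4 exposed mice of that genotype, and the contrast between these 2 groups was -0.93 (adjusted p = 0.0255 in edgeR). The call in that contrast was lost without mouse 13, 21, 31, 33 or 34. Against WT controls, 3xTg-AD mice without alcohol were at -1.71 and WT mice exposed to alcohol at 0.10 on the log2 scale (adjusted p = 1.78e-05 and 0.784 in edgeR).

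Rbmxl1, a retrogene of the RNA-binding protein gene Rbmx, and Ccl27a, a chemokine gene, were also low in 3xTg-AD mice without alcohol. Rbmxl1 measured 32.02, 41.2, 41.2 and 35.4 CPM in WT controls and 12.3, 8.14, 11.5 and 8.66 CPM in alcohol-exposed 3xTg-AD mice (log2 fold change -1.87, SE 0.13, adjusted p = 2.67e-07 in edgeR). Ccl27a measured 103, 101, 97.4 and 121 CPM in WT controls and 38.4, 33.9, 40.4 and 48.8 CPM in alcohol-exposed 3xTg-AD mice (log2 fold change -1.39, SE 0.11, adjusted p = 1.57e-06 in edgeR). In both genes the groups did not overlap, and the log2 fold change in 3xTg-AD mice without alcohol was -2.39 for Rbmxl1 and -1.44 for Ccl27a, while alcohol in WT mice gave 0.23 and 0.32. Both genes have close relatives in the genome that can share reads, so their levels are uncertain in that respect. Pglyrp1, which encodes a peptidoglycan-recognition protein of innate immunity, fell from 14.8 ± 1.83 to 3.87 ± 0.882 CPM (SD, n = 4 mice each, log2 fold change -1.94, SE 0.19, adjusted p = 1.34e-05 in edgeR). Galnt1, whose product starts mucin-type O-glycosylation, fell from 109.6 ± 39.97 to 28.5 ± 1.04 CPM (log2 fold change -1.94, adjusted p = 0.000128 in edgeR), with the 4 exposed mice between 27.1 and 29.5 CPM and the lowest control at 80.99 CPM. AI506816 and the clustered protocadherin Pcdhga11, which shares its last exons with its neighbors, also fell, by 1.82 and 1.73 on the log2 scale (adjusted p = 0.000597 and 0.00016 in edgeR). Their changes in 3xTg-AD mice without alcohol were -1.97 and -1.41, and those of Pglyrp1 and Galnt1 -1.74 and -2.01, each called against the same WT controls.

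Of the called genes, 15 were listed at 0 in all 4 WT controls and 10 in all 4 alcohol-exposed 3xTg-AD mice, for which no fold was formed. Counting also genes at 0 in only some mice of a group, 50 called genes were at 0 in at least 1 of the 8 mice, and their folds are uncertain. Ccr1, a chemokine receptor of myeloid cells, was at 0 in all 8 WT mice. It had 26, 53, 36 and 45 UMIs in alcohol-exposed 3xTg-AD mice and 20, 20, 35 and 28 UMIs in 3xTg-AD mice (adjusted p = 0.000332 in edgeR). Oscar, an immune receptor of the leukocyte receptor family, showed the reverse, with 28, 20, 21 and 52 UMIs in WT controls and 0 in all 8 3xTg-AD mice (adjusted p = 0.000356 in edgeR). Among the others, named here after their values were seen, the chemokine genes Ccl12, Cxcl10 and Ccl5 were at 0 in WT controls. Ccl12 had 26, 31, 33 and 127 UMIs in alcohol-exposed 3xTg-AD mice and 5, 8, 12 and 12 UMIs in 3xTg-AD mice. Cxcl10 had 31, 5, 21 and 98 UMIs in the former and 5, 0, 10 and 11 UMIs in the latter, and Ccl5 had 10, 9, 33 and 46 UMIs and 8, 9, 5 and 7 UMIs. WT mice exposed to alcohol had 0, 0, 9 and 15 UMIs of Ccl12, 0, 0, 0 and 8 UMIs of Cxcl10 and 6, 9, 6 and 14 UMIs of Ccl5. Mouse 34, the last of the exposed mice in each of these series, had the most UMIs of all 3.

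**Figure D1:**
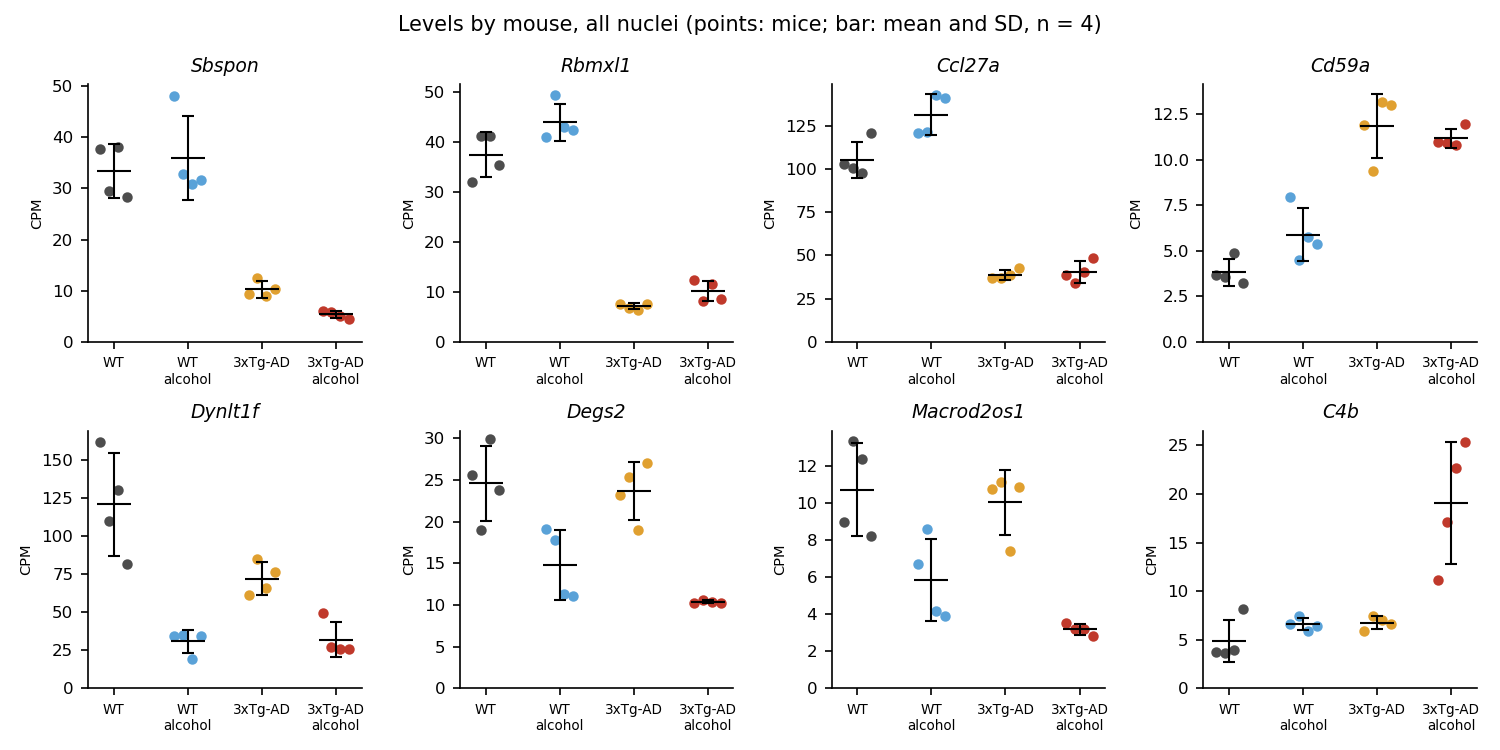
Levels (CPM) of 8 genes in each mouse (points), with the mean and SD of the 4 mice of each group (bars), summed over all nuclei. Sbspon, Rbmxl1 and Ccl27a are low and Cd59a is high in both 3xTg-AD groups, and Dynlt1f is highest in WT controls. Degs2 and Macrod2os1 have lower means and C4b a higher mean in alcohol-exposed 3xTg-AD mice than in 3xTg-AD mice. The calls between these groups were lost in some fits without a single mouse.

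Among the higher genes, 13 of the 261 were neighbors at the end of chromosome X. From Gemin8 (GRCm38, chrX:166170454-166190512) to the last gene tested, Gm21887, which ends at 170019281, 19 genes were tested, and all 19 had a log2 fold change above 0, beside 50.6% of all genes tested. This run of genes was chosen after the values were seen and is given without a test of its own. The called genes were Gemin8 of the SMN complex, the membrane glycoprotein gene Gpm6b, the centriole gene Ofd1, Trappc2 of the vesicle tethering complex TRAPP, the endosomal GTPase gene Rab9, Tceanc, the thymosin gene Tmsb4x, the RNA sensor gene Tlr7, the nucleotide synthesis gene Prps2, the postsynaptic scaffold gene Frmpd4, the chromatin gene Msl3, Hccs, which attaches heme to cytochrome c, and the antisense transcript Gm15261 within Arhgap6. The other 6, Egfl6, Arhgap6, Mid1, G530011O06Rik, Gm15247 and Gm21887, did not pass the test. The median of all 19 genes was 1.05, over a range from 0.33 (Gm15247) to 1.505 (Tlr7) among them. Over the 19 genes tested just before Gemin8, from Reps2 (chrX:162411954-162643649) to Glra2 (chrX:165129017-165327393), the median was 0.17, with 0 higher and 1 lower (Ctps2, -0.39). Glra2, the glycine receptor gene nearest to Gemin8, stood at 1.25 (adjusted p = 0.0565 in edgeR).

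Gpm6b measured 662, 468, 522 and 474 CPM in WT controls and 995, 1063, 1153 and 1114 CPM in alcohol-exposed 3xTg-AD mice (log2 fold change 1.03, SE 0.11, adjusted p = 8e-05 in edgeR). Hccs measured 8.27, 8.96, 9.37 and 10.6 CPM in WT controls and 17.5, 21.7, 19.5 and 18.2 CPM in alcohol-exposed 3xTg-AD mice (log2 fold change 1.05, SE 0.12, adjusted p = 8e-05 in edgeR). For both genes every exposed 3xTg-AD mouse was above every control, and the differences were close to 2-fold. Msl3 measured 18.5, 14.2, 14.5 and 13.3 CPM in WT controls and 32.8, 29.6, 33.7 and 26.98 CPM in alcohol-exposed 3xTg-AD mice (log2 fold change 1.03, SE 0.12, adjusted p = 0.000105 in edgeR). Trappc2 rose from 30.1 ± 6.17 to 69.6 ± 5.28 CPM, Rab9 from 22.4 ± 2.67 to 48.01 ± 11.1 CPM and Frmpd4 from 56.5 ± 11.9 to 114 ± 12.5 CPM (SD, n = 4 mice, adjusted p = 0.000128, 0.000764 and 0.000764 in edgeR). Tmsb4x, which encodes the actin-sequestering peptide thymosin beta 4, was the most abundant of these genes. Tmsb4x measured 925, 963, 1512 and 1461 CPM in WT controls and 3405, 2122, 3726 and 2289 CPM in alcohol-exposed 3xTg-AD mice (log2 fold change 1.25, SE 0.23, adjusted p = 0.00575 in edgeR). The groups of Tmsb4x did not overlap, and mice 31 and 34 were the lower 2 of the exposed mice. Its call held in 23 of 24 alternative fits and was lost with the ribosomal RNA-associated share as a covariate.

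Against the same WT controls, the median of the 19 genes was 1.02 in 3xTg-AD mice without alcohol, with 10 called higher in edgeR (0.119% of all genes tested). It was 0.18 in WT mice exposed to alcohol, with 0 called by edgeR or DESeq2 and an unadjusted p under 0.05 for 6 genes. Between 3xTg-AD mice with and without alcohol it was 0.08, with 0 called in either tool and 1 at an unadjusted p under 0.05. Copy number of this end of the chromosome was not tested. Autosomes had between 0.883% and 2.404% of their genes called higher, and chromosome X 3.495%. Of the 18 genes called higher on chromosome X, 13 belong to the run chosen after the values were seen, so this share is not a separate result.

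**Figure D2:**
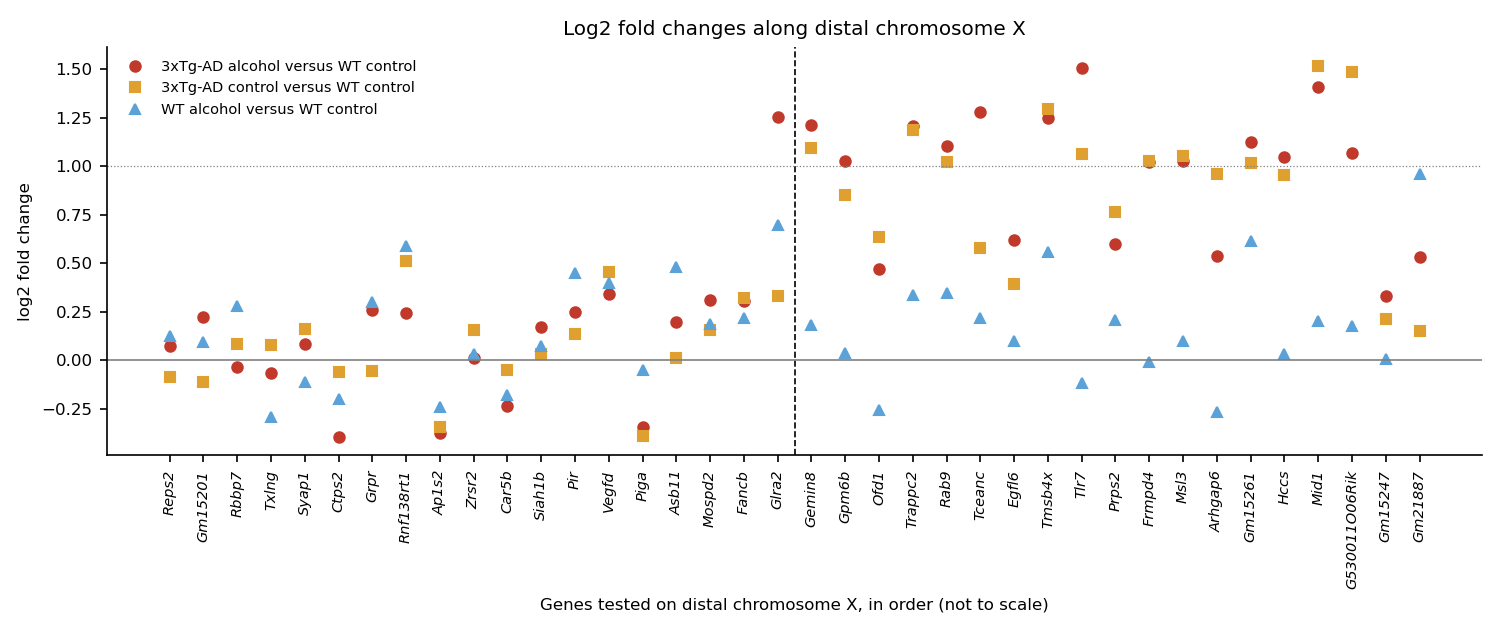
Log2 fold changes (vertical axis) of the genes tested at the end of chromosome X, in their order along it but not to scale, in 3 contrasts that share the WT controls. To the right of the dashed line, at Gemin8 and beyond, the medians of 3xTg-AD mice with and without alcohol are 1.05 and 1.02, and that of WT mice exposed to alcohol is 0.18. The dotted line marks a log2 fold change of 1.

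Elsewhere in the genome, Cd59a and Sap130 were higher in 3xTg-AD mice with and without alcohol. Cd59a measured 3.65, 3.54, 4.86 and 3.202 CPM in WT controls and 10.96, 10.9, 10.8 and 11.96 CPM in alcohol-exposed 3xTg-AD mice (log2 fold change 1.55, SE 0.18, adjusted p = 0.000128 in edgeR). Cd59a encodes an inhibitor of the membrane attack complex of complement, and its exposed mice lay within 10.8 to 11.96 CPM, beside 11.9, 9.38, 13.2 and 12.98 CPM in 3xTg-AD mice. Sap130, a subunit of the Sin3A corepressor, rose from 34.04 ± 5.301 to 68.3 ± 7.68 CPM (SD, n = 4 mice, log2 fold change 1.003, SE 0.12, adjusted p = 0.000135 in edgeR). Its log2 fold change in 3xTg-AD mice without alcohol was 0.82 (adjusted p = 0.00178 in edgeR), and in WT mice exposed to alcohol -0.03.

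Degs2, Macrod2os1 and Dynlt1f were lower in alcohol-exposed 3xTg-AD mice than in 3xTg-AD mice as well as in WT controls. Degs2 measured 25.6, 19.03, 29.9 and 23.8 CPM in WT controls and 10.2, 10.6, 10.4 and 10.2 CPM in alcohol-exposed 3xTg-AD mice (log2 fold change -1.25, SE 0.18, adjusted p = 0.000898 in edgeR). Degs2, a sphingolipid desaturase and hydroxylase gene, showed no overlap, and its 4 exposed 3xTg-AD mice were nearly equal. Against 3xTg-AD mice the log2 fold change of Degs2 was -1.19, that of Macrod2os1 -1.65 and that of Dynlt1f -1.17 (adjusted p = 0.0112, 0.0112 and 0.0369 in edgeR). These calls against 3xTg-AD mice were lost without mouse 13, 21, 31, 33 or 34, where that contrast had 0 calls. Degs2 measured 23.2, 25.4, 18.9 and 26.99 CPM in 3xTg-AD mice and 19.1, 17.8, 11.4 and 11.1 CPM in WT mice exposed to alcohol (log2 fold changes -0.06 and -0.74 against WT controls, adjusted p = 0.975 and 0.234 in edgeR). Macrod2os1, a transcript from the opposite strand of Macrod2, averaged 10.8 ± 2.51 CPM in WT controls and 3.19 ± 0.298 CPM in the exposed 3xTg-AD mice (log2 fold change -1.74, SE 0.24, adjusted p = 0.000664 in edgeR), beside 10.1 ± 1.77 CPM in 3xTg-AD mice and 5.86 ± 2.22 CPM in WT mice exposed to alcohol (SD, n = 4 mice each). Hipk4, a kinase gene, fell from 8.62 ± 1.51 to 3.89 ± 0.0872 CPM (log2 fold change -1.15, adjusted p = 0.000664 in edgeR) and was -0.62 in 3xTg-AD mice and -0.55 in WT mice exposed to alcohol, neither of them called. Dynlt1f measured 162, 109.9, 130.2 and 81.7 CPM in WT controls and 49.6, 26.9, 26.04 and 25.7 CPM in alcohol-exposed 3xTg-AD mice (log2 fold change -1.91, SE 0.24, adjusted p = 0.00026 in edgeR). Dynlt1f, a dynein light chain gene with near-identical copies among which reads can be split, was 34.4, 35.2, 19.5 and 34.1 CPM in alcohol-exposed WT mice and 61.3, 85.03, 65.7 and 76.6 CPM in 3xTg-AD mice, so that WT controls had the highest mean of the 4 groups. Alcohol in WT mice gave a log2 fold change of -1.98 (adjusted p = 0.00316 in edgeR).

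Among genes induced by interferon, 16 were higher in alcohol-exposed 3xTg-AD mice. Of 54 effectors listed, 43 were tested, with 16 called higher and 0 lower (4.06% of all genes were called). Their median log2 fold change was 1.49, against 0.0035 for all genes tested, and 41 of the 43 were above 0. Against the same WT controls the median was 0.54 in 3xTg-AD mice and 0.14 in WT mice exposed to alcohol, with 0 of 43 called in edgeR in each (0.435% and 0.0179% of all genes), 10 and 2 at an unadjusted p under 0.05, and 1 and 0 called in DESeq2. Between 3xTg-AD mice with and without alcohol it was 0.89, with 0 called in edgeR (0.483% of all genes), 20 at an unadjusted p under 0.05 and 4 called in DESeq2. The count rested in part on mouse 34, without which 8 of 44 effectors were called with a median of 0.94. Without WT control 28, 9 were called, on the 8 mice alone 7, and without mouse 4, 25. With the ribosomal RNA-associated share as a covariate, and after removal of the 3 mice highest in Gm42418, 5 effectors were called, at medians of 1.63 and 1.77. DESeq2 called 21.

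The 16 called effectors were Ifit3, Ifitm3, Ifi27, Ifi27l2a, Usp18, Rsad2, Oasl2, Bst2, Rtp4, Ddx60, Samd9l, Trim30a, Lgals3bp, Gbp3, Iigp1 and Apobec3. Ifitm3 measured 5.68, 4.76, 2.48 and 2.59 CPM in WT controls and 10.1, 13.2, 17.7 and 26.1 CPM in alcohol-exposed 3xTg-AD mice (log2 fold change 2.12, SE 0.30, adjusted p = 0.000848 in edgeR). Ifitm3 restricts the entry of viruses, and its lowest exposed mouse, mouse 4, was above all controls. Bst2 measured 2.51, 1.55, 1.68 and 1.703 CPM in WT controls and 4.13, 8.97, 13.1 and 35.97 CPM in alcohol-exposed 3xTg-AD mice (log2 fold change 3.03, SE 0.53, adjusted p = 0.00484 in edgeR). Bst2, or tetherin, holds budding virus particles at the cell surface. It showed no overlap, with mouse 4 the lowest and mouse 34 the highest of the exposed mice. Oasl2 measured 0.7297, 0, 0.619 and 0 CPM in WT controls and 1.14, 4.46, 5.16 and 50.8 CPM in alcohol-exposed 3xTg-AD mice (log2 fold change 5.45, SE 1.23, adjusted p = 0.0255 in edgeR), a member of the oligoadenylate synthetase family, in which mouse 34 exceeded the next mouse by far. Rsad2 measured 0, 0, 0.796 and 0.817 CPM in WT controls and 1.38, 3.03, 2.67 and 8.58 CPM in alcohol-exposed 3xTg-AD mice (log2 fold change 3.13, SE 0.66, adjusted p = 0.0135 in edgeR), the gene of the antiviral enzyme viperin, again with mouse 34 highest. The folds of Oasl2 and Rsad2 are uncertain, because controls listed at 0 can hold a few UMIs. Ifi27l2a had 1.56, 8.67, 8.56 and 20.3 CPM in alcohol-exposed 3xTg-AD mice and at most 0.973 CPM in WT controls. Apobec3, whose product edits viral DNA, rose from 1.895 ± 0.472 to 6.11 ± 2.62 CPM (SD, n = 4 mice, log2 fold change 1.69, SE 0.30, adjusted p = 0.00475 in edgeR). Iigp1, a GTPase gene of the immunity-related family, was at 0 in all 4 WT controls and had 12, 21, 13 and 115 UMIs in the exposed 3xTg-AD mice. In the summed level of the effectors in the table, mouse 34 had 1002 CPM, the other 3 exposed mice 375 to 472 CPM and the WT controls 311 to 336 CPM. Ifit3 can share reads with its copy Ifit3b.

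**Figure D3:**
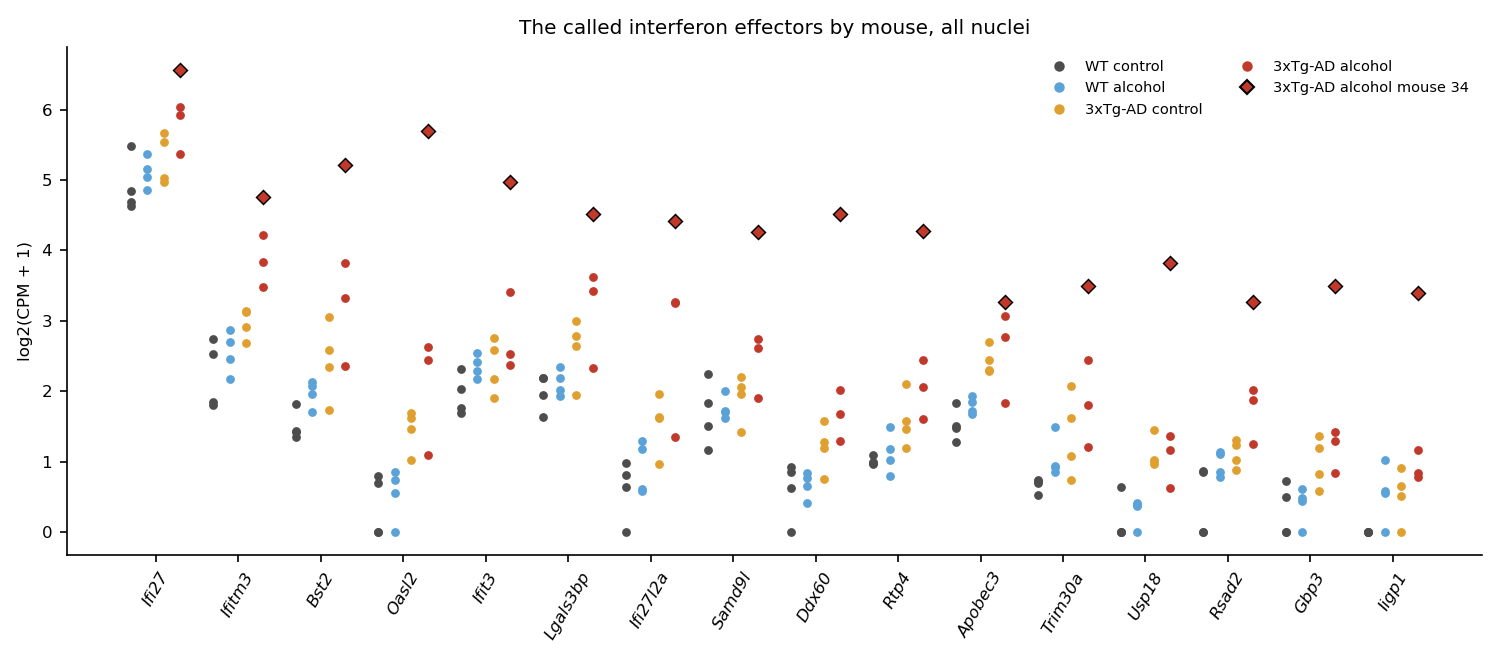
The 16 called interferon effectors in each of the 16 mice, as log2(CPM + 1), with 3xTg-AD alcohol mouse 34 drawn as a diamond. Mouse 34 is the highest mouse for all 16 genes, and the other exposed 3xTg-AD mice mostly lie above the WT controls.

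To show the element that many of these genes share, parts of 5 promoters of called effectors and of the called MHC class I gene B2m are printed, 5′ to 3′ on the strand of the gene, from RefSeq sequence of GRCm38.p6. Capitals mark 10 bases of the form GAAA, 2 bases of any kind and GAAA again or, read from the other strand, TTTC, 2 bases of any kind and TTTC, and the other letters are 30 bases on either side, all of them before the annotated start of transcription.
Bst2 (chr8:71537563-71537632, minus strand of the genome): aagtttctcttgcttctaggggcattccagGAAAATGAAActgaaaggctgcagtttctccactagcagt
Ifit3 (chr19:34583343-34583412, plus strand of the genome): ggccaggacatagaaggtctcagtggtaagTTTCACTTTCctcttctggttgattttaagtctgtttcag
Rsad2 (chr12:26456533-26456602, minus strand of the genome): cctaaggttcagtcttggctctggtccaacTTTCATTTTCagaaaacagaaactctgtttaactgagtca
Gbp3 (chr3:142559969-142560038, plus strand of the genome): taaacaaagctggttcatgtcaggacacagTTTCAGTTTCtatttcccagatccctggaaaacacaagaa
Ddx60 (chr8:61928004-61928073, plus strand of the genome): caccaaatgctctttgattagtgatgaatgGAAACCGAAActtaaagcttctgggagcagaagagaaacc
B2m (chr2:122147518-122147587, plus strand of the genome): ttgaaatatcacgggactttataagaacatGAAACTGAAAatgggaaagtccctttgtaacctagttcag

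This motif, GAAA and GAAA with 2 bases of any kind (NN) between them, was searched on both strands of promoters from 250 bases before to 50 after the start, where overlapping matches were counted once per promoter. It occurred in 1131 of 32851 promoters (3.44%), and in at least 1 promoter of 433 of the 12230 tested genes that had one (3.54%). Of the tested effectors, 35 had a promoter in the table and 18 of these held the motif. Of the 11 called effectors with a promoter, 8 held it, and of the 24 not called, 10. Among the tested genes of antigen presentation by MHC class I it occurred in 5 of 19. A match is a description of these letters and not a binding site.

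Of 23 sensors and factors of the pathway, Tlr7, Mavs and Irf7 were higher and Jak2 lower (1.56% and 2.5% of all genes were called in these directions), and the median was 0.27. Tlr7, which lies in the run of genes at the end of chromosome X, measured 1.62, 0.664, 1.15 and 0.681 CPM in WT controls and 1.92, 2.79, 3.22 and 3.96 CPM in alcohol-exposed 3xTg-AD mice (log2 fold change 1.505, SE 0.32, adjusted p = 0.0147 in edgeR), with no overlap. Irf7, the factor that amplifies interferon induction, was 1.797, 2.91, 2.12 and 13.4 CPM in the exposed mice and at most 1.62 CPM in controls (log2 fold change 1.91, adjusted p = 0.0483 in edgeR). Mavs, the mitochondrial adaptor of RNA sensing, was 0.83 and Jak2, a non-receptor kinase, -0.55 (adjusted p = 0.0442 and 0.0461 in edgeR). Leaving out single mice left between 1 and 5 of the list called, with 1 called without mouse 6, 13, 14, 18, 26, 27, 28, 31 or 34, and 1 was called on the 8 mice alone, with the ribosomal RNA-associated share as a covariate and without the 3 mice highest in Gm42418.

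Genes of MHC class I presentation, induced by interferons and carrying peptides to the cell surface, had 8 of 20 members called higher and 0 lower (1.56% and 2.5% of all genes), with a median of 0.55. These were the light chain gene B2m, the heavy chain genes H2-K1 and H2-Q7, the peptide transporter gene Tap1 and the proteasome genes Psmb8, Psmb9, Psme1 and Psme2. H2-K1 measured 8.19, 7.08, 5.57 and 7.56 CPM in WT controls and 15.3, 20.02, 24.3 and 37.8 CPM in alcohol-exposed 3xTg-AD mice (log2 fold change 1.77, SE 0.25, adjusted p = 0.000913 in edgeR). B2m measured 23.7, 20.5, 21.7 and 24.6 CPM in WT controls and 33.3, 35.6, 52.9 and 55.5 CPM in alcohol-exposed 3xTg-AD mice (log2 fold change 0.97, SE 0.20, adjusted p = 0.011 in edgeR). The groups of both genes did not overlap, and mouse 34 was the highest in each. H2 genes resemble each other and can share reads. The immunoproteasome subunit Psmb8 rose from 2.19 ± 0.304 to 6.42 ± 3.01 CPM (SD, n = 4 mice, log2 fold change 1.53, SE 0.29, adjusted p = 0.00688 in edgeR). The list's median was 0.20 in 3xTg-AD mice and 0.28 in WT mice exposed to alcohol against the same controls, with 0 called in either by edgeR, with an unadjusted p under 0.05 for 6 and 8 members, and 1 and 0 called in DESeq2. Without mouse 6, 26, 27, 28 or 34, or after removal of the 3 mice highest in Gm42418, 4 members were called, on the 8 mice alone 5, without any other single mouse 5 to 9, and with the ribosomal RNA-associated share as a covariate 2.

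Complement and reactive astrocyte genes had 6 of 21 tested members higher and 0 lower (1.56% and 2.5% of all genes), with a median of 0.47. These were C1qa, C1qb, C1qc, C4b, Cd59a and the intermediate filament gene Vim. The list's median against the same WT controls was 0.09 in 3xTg-AD mice and 0.49 in WT mice exposed to alcohol. There, 1 and 0 were called in edgeR (0.435% and 0.0179% of all genes), 1 and 1 in DESeq2, and 5 and 6 had an unadjusted p under 0.05. Without the 3 mice highest in Gm42418, 9 were higher at a median of 0.96, and with the ribosomal RNA-associated share as a covariate 6 at a median of 0.78. C4b measured 3.73, 3.65, 3.98 and 8.17 CPM in WT controls and 11.2, 17.1, 22.7 and 25.3 CPM in alcohol-exposed 3xTg-AD mice (log2 fold change 1.94, SE 0.26, adjusted p = 0.000433 in edgeR). C4b, a component of the classical pathway, was between 5.94 and 7.46 CPM in 3xTg-AD mice and was called between 3xTg-AD mice with and without alcohol (1.49, adjusted p = 0.0177 in edgeR). That call was lost without mouse 13, 21, 31, 33 or 34. C1qa measured 21.6, 12.6, 13.97 and 16.7 CPM in WT controls and 28.9, 31.4, 46.9 and 49.3 CPM in alcohol-exposed 3xTg-AD mice (log2 fold change 1.26, SE 0.20, adjusted p = 0.00199 in edgeR). C1qa, C1qb and C1qc encode the chains of C1q, and each was higher in all 4 exposed mice than in all 4 controls. Their log2 fold changes in WT mice exposed to alcohol were 0.57, 0.52 and 0.54, and in 3xTg-AD mice 0.53, 0.49 and 0.48, none of them called. Fcer1g, the signaling chain of Fc receptors in microglia, measured 5.11, 5.09, 3.54 and 4.09 CPM in WT controls and 10.2, 11.2, 16.2 and 14.4 CPM in alcohol-exposed 3xTg-AD mice (log2 fold change 1.55, SE 0.19, adjusted p = 0.000197 in edgeR), with no overlap. Of 18 genes of microglial activation, the adaptor gene Tyrobp and the protease gene Ctss were higher (0.82 and 1.13, adjusted p = 0.0425 and 0.0244 in edgeR), with a median of 0.28, and 0 were called without mouse 27, 28, 36, 33 or 34 or on the 8 mice alone. Against the same WT controls this list had a median of 0.31 in WT mice exposed to alcohol and of 0.005 in 3xTg-AD mice. In both, 0 were called in edgeR and DESeq2, and 5 and 0 had an unadjusted p under 0.05. At 29 Alzheimer disease loci, with 2 called beside 4.06% of all genes, the microglial factor gene Spi1 was higher (1.17) and Wwox lower (-1.14, adjusted p = 0.0472 and 0.033 in edgeR), with 0 called without mouse 31, 33 or 36, on the 8 mice alone, without the 3 mice highest in Gm42418 and with no filter on low counts. The 6 microglial markers, which include C1qa, summed to 53.7 to 82.97 CPM in WT controls and 80.1 to 119 CPM in alcohol-exposed 3xTg-AD mice, and to 41.1 to 61.3 and 51.3 to 70.6 CPM without C1qa, so that both sums overlapped. The median of WT controls and of exposed mice was 13.04 and 16.99 CPM for Csf1r, 4.01 and 5.79 CPM for Tmem119, 13.6 and 16.03 CPM for Cx3cr1, 7.96 and 14.7 CPM for Siglech and 14.3 and 12.7 CPM for P2ry12, and the levels of the groups overlapped for these 5 markers. The 6 astrocyte markers summed to 176 to 241 and 221 to 298 CPM. In such sums, more cells of a type and more RNA per cell cannot be told apart, and the part of cell numbers in these results was not tested.

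**Figure D4:**
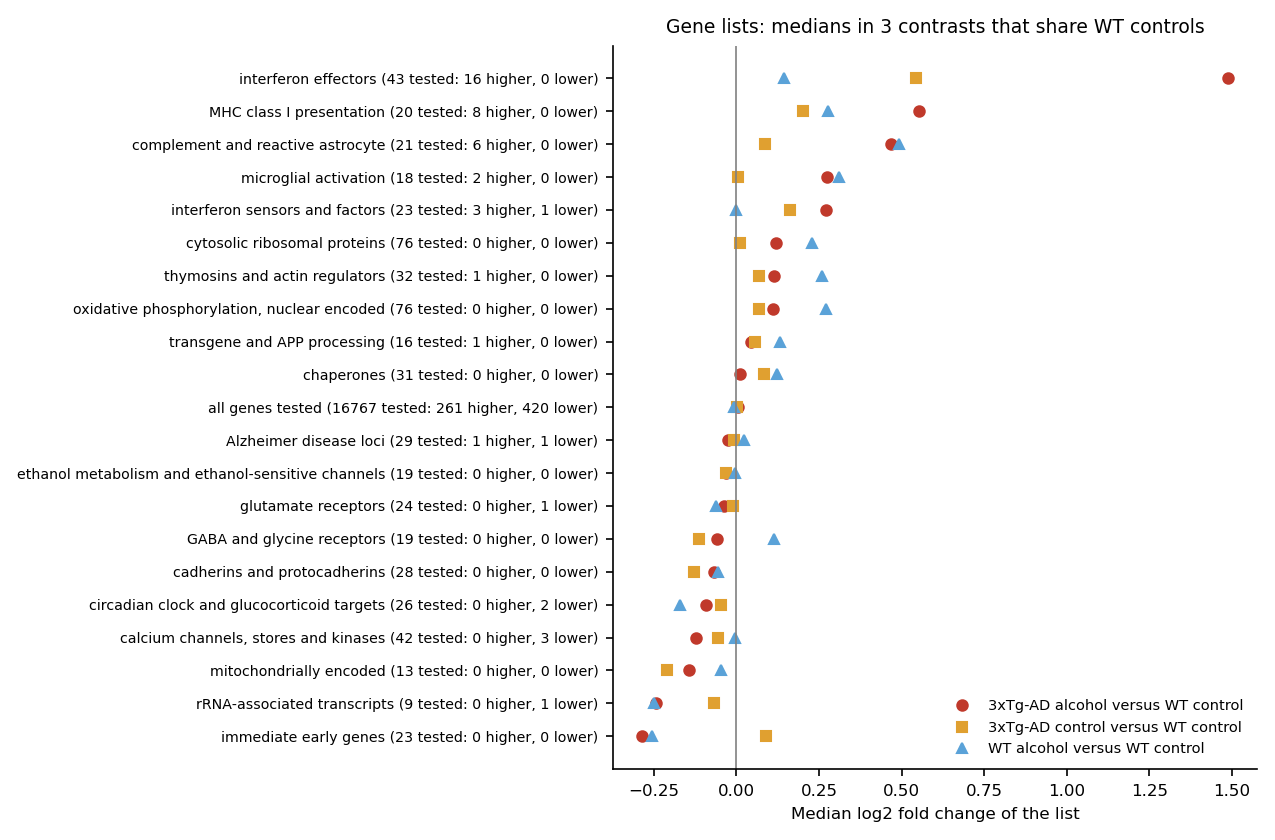
Median log2 fold change of each gene list (horizontal axis) in 3 contrasts that share the WT controls, with the members tested and called in alcohol-exposed 3xTg-AD mice in each label. In alcohol-exposed 3xTg-AD mice versus WT controls, interferon effectors have the highest median, 1.49. MHC class I presentation follows at 0.55 and complement and reactive astrocyte genes at 0.47. These 2 lists change places without mouse 34 (0.44 and 0.48), without the 3 mice highest in Gm42418 (0.67 and 0.96) and with the covariate (0.56 and 0.78). In WT mice exposed to alcohol the complement list has 0.49, MHC class I 0.28 and interferon effectors 0.14. Immediate early genes, at -0.29, had -0.13 without mouse 34, 0.03 without the 3 mice highest in Gm42418 and -0.04 with the ribosomal RNA-associated share as a covariate.

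Sequences of the human transgenes were not analysed here. Thy1, the source of the transgene cassette, was 214 ± 37.9 and 281 ± 45.5 CPM (SD, n = 4 mice, log2 fold change 0.39, SE 0.16, adjusted p = 0.177 in edgeR). App was -0.11 and Mapt, the tau gene, 0.05 (adjusted p = 0.657 and 0.815 in edgeR), neither of them called.

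Lists of neuronal signaling are given here beside the 1.56% of all genes called higher and 2.5% called lower. Of 24 glutamate receptor genes only the AMPA receptor subunit gene Gria4 was lower (-0.48, adjusted p = 0.048 in edgeR), and its call held in 5 of 24 alternative fits. None of 19 GABA and glycine receptor genes and none of 19 genes of ethanol metabolism and ethanol-sensitive channels was called in edgeR, beside 2 in each list in DESeq2 and 2 and 4 at an unadjusted p under 0.05. Other edgeR fits called 0 to 2 of the receptors, with 1 higher under the covariate, and 0 to 1 of the ethanol-related genes. Of 42 genes of calcium channels, stores and kinases, Cacna1i, a T-type channel gene, Atp2b3, a calcium pump gene, and the kinase gene Camkk1 were lower (2.5% of all genes were), and 36 of the 42 had a log2 fold change below 0, with a median of -0.12, where 50.6% of all genes were above 0. Cacna1i measured 41.8, 37.1, 27.5 and 25.7 CPM in WT controls and 23.4, 21.6, 21.1 and 18.4 CPM in alcohol-exposed 3xTg-AD mice (log2 fold change -0.64, SE 0.14, adjusted p = 0.0147 in edgeR), with no overlap, whereas 1 of the list was called without mouse 26, 28, 31 or 33 and 0 without mouse 34 and on the 8 mice alone. With the ribosomal RNA-associated share as a covariate 1 of the list was higher and 0 lower, and without the 3 mice highest in Gm42418 1 was higher and 1 lower. The clock repressor gene Nr1d2 and the glucocorticoid target Zbtb16 were lower, with log2 fold changes of -0.45 and -0.53 (adjusted p = 0.0218 and 0.0338 in edgeR), among 26 genes of clock and glucocorticoid response, with 0 called without mouse 27 or 33, with the covariate and without the 3 mice highest in Gm42418. None of 23 immediate early genes was called in edgeR or DESeq2 (1 at an unadjusted p under 0.05), at a median of -0.29 that was -0.13 without mouse 34, 0.03 without the 3 mice highest in Gm42418 and -0.04 with the covariate. Of 32 thymosins and actin regulators only Tmsb4x was called, and 0 were with the ribosomal RNA-associated share as a covariate. No member was called in edgeR among 31 chaperones, 28 cadherins and protocadherins, 13 mitochondrially encoded genes, 76 cytosolic ribosomal protein genes and 76 nuclear genes of oxidative phosphorylation, where DESeq2 called 3 cadherins and 0 of the others and 5, 9, 2, 10 and 6 genes had an unadjusted p under 0.05. The clustered protocadherin gene Pcdhga11, called lower above, is not a member of the cadherin list. Of the cadherins, 2 were higher with the ribosomal RNA-associated share as a covariate, at a median of 0.26 against -0.07, 1 was higher without the 3 mice highest in Gm42418, and 1 was called without mouse 12, 27, 28 or 36. The ribosomal protein genes had a median of 0.12 and the oxidative phosphorylation genes one of 0.11, which became 0.09 and -0.03 with the covariate. The exposed mice were split around the controls in both lists. Ribosomal protein genes summed to 27215, 17133, 31006 and 18669 CPM in exposed 3xTg-AD mice, beside 19833 to 23086 CPM in WT controls. Oxidative phosphorylation genes summed to 17174, 11325, 19586 and 11821 CPM, beside 13502 to 14156 CPM. Of the 9 ribosomal RNA-associated transcripts, only AY036118 was called, and it was lower (log2 fold change -0.84, SE 0.19, adjusted p = 0.0182 in edgeR), beside 4 called without WT control 28 or 36 and 3 without mouse 12 and in DESeq2. The call of AY036118 was lost without mouse 31, without WT control 26, on the 8 mice alone, with the ribosomal RNA-associated share as a covariate and without the 3 mice highest in Gm42418.

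Nuclei were also grouped into 7 marker classes, each nucleus by UMIs of fixed markers, at least 2 UMIs of a class and at least 2 times as many as of any other. This placed 71300 of the 114512 nuclei (62.3%), with 49900 of them glutamatergic neurons by Slc17a7 and its companions. The sums of each class and mouse were tested in the same way, and results by class are given for the main contrast only. In glutamatergic neurons 135 genes were higher and 270 lower of 15316 tested (0.881% and 1.76%, 2.64% in all), and in GABAergic neurons 51 and 62 of 10781 (0.473% and 0.575%, 1.05% in all). Astrocytes had 22 higher and 29 lower of 8203 (0.268% and 0.354%, 0.622% in all), oligodendrocytes 7 and 11 of 7109 (0.0985% and 0.155%, 0.253% in all), oligodendrocyte precursors 6 and 5 of 2663 (0.225% and 0.188%, 0.413% in all), microglia 17 and 9 of 2800 (0.607% and 0.321%, 0.929% in all) and vascular cells 6 and 3 of 2102 (0.285% and 0.143%, 0.428% in all). The classes differ widely in nuclei and thus in depth, so these counts do not rank the classes by response.

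Some genes of the end of chromosome X and some genes low in 3xTg-AD mice were called in several classes. Tmsb4x was called in all 7 classes, with log2 fold changes between 1.13 and 1.30, and in microglia, where it is most abundant after the vascular class, it measured 2992, 3589, 4334 and 5012 CPM in WT controls and 11430.5, 8372, 10312 and 9044 CPM in alcohol-exposed 3xTg-AD mice. Gpm6b was called in 6 of 7 classes, and in astrocytes it measured 1127, 1083, 942 and 1284 and 2410.1, 2894, 3038 and 2398 CPM (log2 fold change 1.27, SE 0.17, adjusted p = 3.71e-06 in edgeR). Trappc2 and Rbmxl1 were called in all 4 classes where they were tested and Ccl27a in 5 of 6. Sbspon was called in both neuronal classes, at -2.55 in glutamatergic and -2.75 in GABAergic neurons.

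The nuclei of the vascular class held 14662 CPM of the 5 blood markers beside 6477 CPM of their own markers, over all mice and without TMM factors, whereas the other 6 classes held 265 to 631 CPM of blood markers, and the part of blood RNA in the results of this class was not tested. In this class, Ly6a, a surface protein gene of endothelium, measured 361, 317, 524 and 586 CPM in WT controls and 727, 1188, 837 and 1539.9 CPM in alcohol-exposed 3xTg-AD mice (log2 fold change 1.25, SE 0.24, adjusted p = 0.00253 in edgeR). H2-K1 rose in the same class from 153, 185, 131 and 255 to 519, 448, 395 and 888 CPM (log2 fold change 1.58, SE 0.31, adjusted p = 0.00437 in edgeR). Both showed no overlap, and mouse 34 was the highest in both. In oligodendrocytes, the cadherin gene Cdh2 measured 231, 227, 263 and 423 CPM in WT controls and 82.6, 89.3, 80.97 and 75.3 CPM in exposed 3xTg-AD mice (log2 fold change -1.83, SE 0.23, adjusted p = 6.61e-07 in edgeR), and the myosin light chain kinase gene Mylk measured 47.1, 34.2, 38.9 and 42.4 and 0, 0, 0 and 2.35 CPM, each without overlap. Gsk3a, a kinase gene, fell in astrocytes from 73.98 ± 23.5 to 26.7 ± 7.299 CPM (SD, n = 4 mice, adjusted p = 0.00077 in edgeR). In oligodendrocyte precursors the ribosomal protein gene Rpl29, which has processed copies, was higher (1.78), and Serpini1, a neuronal protease inhibitor gene, and the neuronal RNA Bc1 were lower (-1.26 and -1.32, adjusted p = 0.0165 and 3.08e-05 in edgeR). In microglia the multicopy genes Sfi1 and Rnaset2b were higher (2.09 and 2.34). The astrocyte glutamate transporter gene Slc1a3 fell in this class from 1088, 988, 1182 and 1806 CPM to 282, 404, 358 and 306 CPM (log2 fold change -1.91, SE 0.22, adjusted p = 3.4e-09 in edgeR), with no overlap, and Nav3 by 0.99 on the log2 scale. In the vascular class the neuronal genes Slc24a2 and Map1a were lower (-1.77 and -1.01), as was Luzp1 (-1.30). C1qa, which helped to define the microglial class, was higher in glutamatergic neurons too (log2 fold change 1.13, SE 0.19, adjusted p = 0.0028 in edgeR), at 9.27 and 20.6 CPM beside 598 and 1161 CPM in microglia. Slc1a3, Serpini1, Bc1, Slc24a2, Map1a and C1qa are known from other cell types than the classes given here, and the part of RNA from other cells in these sums was not tested. Over the 7 classes, Slc1a3 was above 0 in 6 and Serpini1 in 1, at medians of 0.36 and -0.09, and each was called in 1. Bc1, Slc24a2 and Map1a were below 0 in all 7, and C1qa was above 0 in all 5 where it was tested. Of 8 fits that each left out 1 of the mice compared, Serpini1 and Map1a lost their calls in 5, Nav3 in 4, Bc1, Slc24a2 and Luzp1 in 2 and Ly6a, H2-K1, Rpl29 and Rnaset2b in 1.

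The share of nuclei in each class was compared by two-sided exact permutation tests, which cannot go below p = 0.0286 with 4 mice against 4. Microglia made up 2.10, 1.61, 1.11 and 1.9996% of the classed nuclei in WT controls and 2.47, 4.06, 3.31 and 4.02% in alcohol-exposed 3xTg-AD mice (exact permutation test, p = 0.0286, adjusted over 7 classes 0.0667). Astrocytes made up 6.18, 6.49, 5.28 and 5.84% and 7.42, 8.44, 9.47 and 7.55%, and oligodendrocyte precursors 2.24, 1.96, 1.81 and 1.44% and 2.45, 2.47, 2.36 and 2.55%, with the same p-values. In these 3 classes every exposed mouse was above every control, but no class passed the correction. With 3 such classes of 7, the corrected value cannot be below 0.0667 at this number of mice, so the correction could not be passed and decides nothing here. The microglial marker C1qa and the precursor marker Pdgfra were themselves called higher, and with both left out of the class markers, an alternative chosen after seeing the data, microglia made up 1.03 to 1.78% in WT controls and 2.15 to 3.20% in exposed mice and oligodendrocyte precursors 0.968 to 1.42% and 1.51 to 1.78%, with unchanged p-values. The other 4 classes overlapped between the groups, and the GABAergic share of WT control 27 was 26.2% against at most 11.7% in the other WT controls.

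**Figure D5:**
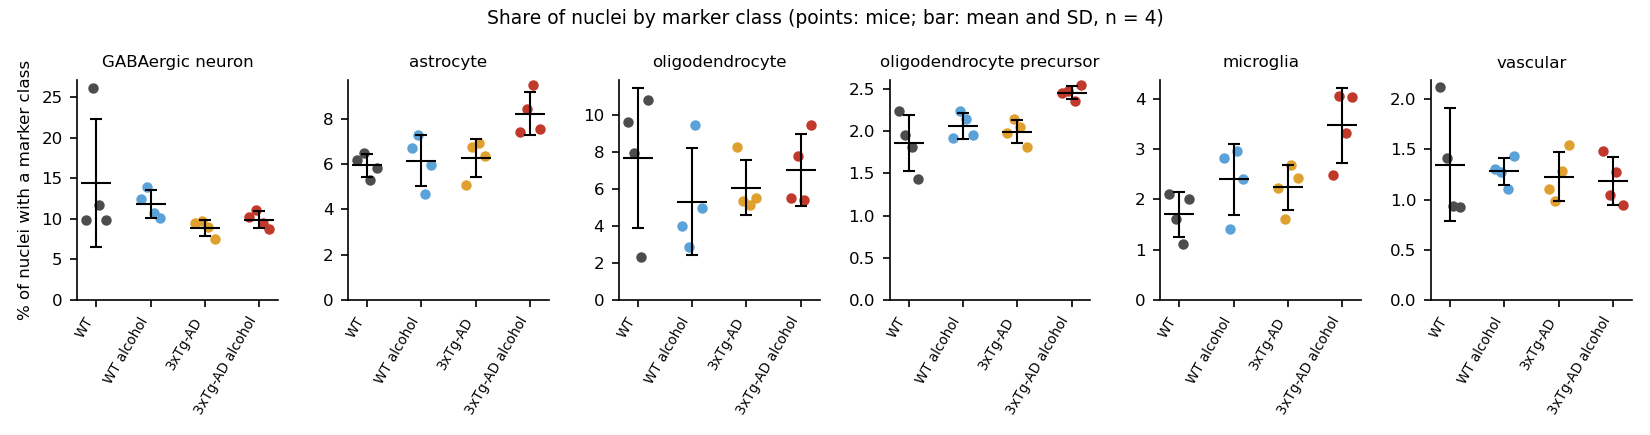
Percent of classed nuclei in 6 marker classes in each mouse (points), with the mean and SD of the 4 mice of each group. The astrocyte, oligodendrocyte precursor and microglial shares of alcohol-exposed 3xTg-AD mice lie above those of all WT controls (means 8.22% against 5.95%, 2.46% against 1.86% and 3.47% against 1.703%).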

How the data were processed

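Nuclei of the medial prefrontal cortex were profiled with a 10x Genomics 3′ kit. By the submitters' processing notes and the study's methods, the authors aligned reads to mm10 with Cell Ranger 6.1.1, based on STAR, and deposited UMI counts per gene and nucleus without normalization (19999 genes). The limits of their filter on nuclei are not given in the sources used here. Whether counting used strand is not stated there either, so antisense transcripts are uncertain. Counts were summed per mouse, and each nucleus took its mouse from its column label. No column was left out. A single model in edgeR 4.0.16 took the sums of all 16 mice (R 4.3.3, filterByExpr, TMM, robust quasi-likelihood, 1 mean per group), which pools the spread of 4 groups, and p-values were adjusted by Benjamini-Hochberg over all genes of a contrast. CPM, marker sums included, are TMM-scaled. Values after ± are SDs between mice. SE is the size of a log2 fold change divided by the square root of F in its quasi-likelihood test. It therefore rests on the pooled fit and not on the mice of the 2 groups alone. Nuclei of the marker classes were summed per mouse in the same way, and doublets were not called. Alternatives were DESeq2 1.42.0 and its size factors, no filter on low counts, filtered nuclei (at least 500 genes and at most 5% mitochondrial UMIs), a covariate, and single mice left out. The fit was tested on simulated data. Named genes were the 12 higher and 12 lower with the smallest p, Gm and Rik names aside, each called member of a list, Thy1, App, Mapt and Tmsb4x, and 3 per class and direction. One further gene is not reported here. Members and lists were chosen with earlier results of these data known. Of the genes tested, 16511 had a single match in GENCODE M21. Positions are of GRCm38. Replicates are separate mice.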

Additional observations from a re-analysis of the deposited data

Results flagged for a closer look

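Of 142 groups of 4 mice tested for a single mouse far from the other 3, 17 had one. Of these 17, 9 were mouse 34 of the alcohol-exposed 3xTg-AD mice. The rule flags about 1 in 20 groups by chance when groups are independent. The groups here were of named genes, most of them chosen by their calls and many rising together. That rate therefore does not apply, and the count of flags is a description. Mouse 34 stood above the other 3 exposed mice for Irf7 (13.4 CPM), Usp18 (13.1 CPM), Oasl2 (50.8 CPM), Rtp4 (18.3 CPM), Ddx60 (21.9 CPM), Gbp3 (10.2 CPM), Iigp1 (9.49 CPM) and Tap1 (8.66 CPM), all genes of interferon response or antigen presentation. It was also flagged for Cd59a, by a small step (11.96 CPM beside 10.8 to 10.96 CPM). The fits without mouse 34 are given beside the counts of these lists, and why this mouse stood apart was not tested. In the same group, mouse 4 was high for Dynlt1f (49.6 CPM), mouse 33 low for Mavs (2.06 CPM) and mouse 31 low for Psme2 (14.1 CPM). Among WT controls, mouse 26 was high for Irf7 (1.62 CPM) and Bst2 (2.51 CPM), mouse 27 for Jak2 (64.1 CPM) and Usp18 (0.553 CPM, with the other 3 at 0), and mouse 36 for C4b (8.17 CPM).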

How the results depend on the processing

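No paired analysis was possible because the replicate numbers are the mice's own numbers and no number occurs in more than 1 group. DESeq2 called more genes than edgeR in the contrasts of all nuclei. It gave 1230 against 681 for alcohol-exposed 3xTg-AD mice versus WT controls, 200 against 73 for 3xTg-AD mice versus WT controls, 100 against 3 for alcohol in WT mice, 395 against 81 for alcohol in 3xTg-AD mice, 421 against 158 for genotype among exposed mice and 1 against 0 for the interaction. A fit on the 8 mice alone gave 398. Without the 3 mice with the most Gm42418, the counts were 659 for the main contrast, 45 for 3xTg-AD mice versus WT controls, 457 for alcohol in 3xTg-AD mice, 323 for genotype among exposed mice and 1 for the interaction. The ribosomal RNA-associated share as a covariate gave 944, and 1 for alcohol in WT mice, 867 for alcohol in 3xTg-AD mice and 321 for genotype among exposed mice. Leaving out single mice gave 280 to 867 genes in the main contrast, 35 to 105 for 3xTg-AD mice versus WT controls, 1 to 5 for alcohol in WT mice, 0 to 244 for alcohol in 3xTg-AD mice, 49 to 182 for genotype among exposed mice and 0 to 1 for the interaction. By class it gave 183 to 451 genes in glutamatergic and 45 to 143 in GABAergic neurons, 14 to 77 in astrocytes, 13 to 30 in oligodendrocytes, 6 to 13 in oligodendrocyte precursors, 7 to 26 in microglia and 1 to 16 in vascular cells. With at least 3 UMIs of a class and 3 times those of any other, the counts were 24 in astrocytes, 1 in oligodendrocyte precursors, 13 in microglia and 17 in vascular cells, and without the 3 mice 25, 7, 11 and 1. The difference in the glutamatergic share was -0.132 percentage points under the stricter classes and -3.57 to 3.92 without single mice, that of oligodendrocytes -2.43 to 0.409 and that of vascular cells -0.304 to 0.0967, and their signs were not stable. The causes of these shifts were not tested, and neither was the part of the fewer mice in each smaller fit. Of the 68 named genes called, 32 were called in all 24 alternatives, 36 lost their call in at least 1 and 0 changed sign, with 27 lost without the 3 mice, 31 with the covariate, 25 without mouse 34 and 0 in DESeq2. Depth limits the rare classes, and genes near the limit of 5 nuclei can be listed at 0 by counting error.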

Other observations

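Transcripts annotated as antisense leaned to the lower side. Of 1010 tested, 14 were higher and 93 lower (edgeR quasi-likelihood test), and their median log2 fold change was -0.28. Of 14180 protein-coding genes 220 were higher and 274 lower, with a median of 0.01. Thus 9.21% of the antisense and 1.93% of the protein-coding genes were called lower, beside 2.5% of all genes. More calls were lower than higher also among lincRNAs (4.56% and 1.57%) and processed transcripts (4.11% and 1.47%), at medians of -0.02 and -0.04. Sense-intronic and bidirectional promoter transcripts went the other way, with 0 lower and 6 and 1 higher. Calls by kind of transcript were not counted in the alternative fits. The summed level of antisense transcripts was 9012 to 10905 CPM in WT controls and 7747 to 9051 CPM in alcohol-exposed 3xTg-AD mice, which overlap. Whether these transcripts can be told from their partners depends on strand, which the sources used here do not give.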
